A study of Mus musculus with 16 samples.

Results

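During chemical reprogramming of mouse fibroblasts most measured regions lost DNA methylation by day 12, and 524 of 92383 regions (0.567%) still stood over 50% in both day-12 libraries. These 524 regions, called retained tiles here, are the subject of the account. A tile is a window of 1000 bases, counted from base 1 of chromosomes 1 to 19, that holds at least 3 CpG sites read at least 10 times in each of the 16 libraries. Its methylation level is the share of methylated reads among all reads at those sites. The day-12 level chose the tiles, so day-12 values below are descriptions without a test, and tests are given for contrasts that hold no day-12 library. The retained tiles held 5467 of the 857278 such sites on these chromosomes.

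The libraries were made by reduced representation bisulfite sequencing, in which MspI digestion enriches for CpG-rich DNA and bisulfite leaves methylated cytosines to be read as C. The cultures of D2, D4, D6, D8, D10 and D12 were cells in chemical reprogramming medium, sampled on that day, and D0 was the starting population of mouse embryonic fibroblasts (MEFs). The MEFs came from embryos at E13.5 of the 129XOG2 cross, which carries a reporter of the pluripotency factor Oct4, and were used at low passage. The induced pluripotent stem cells (iPSCs) were held on feeder cells in mouse embryonic stem cell medium with LIF, CHIR99021, an inhibitor of GSK3, and PD0325901, an inhibitor of MEK. All groups therefore share the strain and the OG2 reporter. The culture and the day from which the iPSCs were taken are not stated in the labels, nor is the removal of feeder cells before DNA was taken. The labels mention no sorting of the D2 to D12 cultures, and a level between 0 and 100% is an average over all cells in the dish.

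CpG methylation is copied to new DNA strands by DNMT1, which UHRF1 guides to hemimethylated sites, and it is lost when this copying fails during division or when TET enzymes oxidise the mark. In the mouse germline and early embryo, where most methylation is erased, some retrotransposons of the intracisternal A particle (IAP) class and the control regions of imprinted genes are known to keep theirs. KRAB zinc finger proteins with TRIM28 are known to hold methylation at many of these sequences. Which gene or repeat lies at a given tile was not analysed here, since the coordinates are on GRCm39 and no genome or annotation of that build was used, so no sequence is shown.

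The 16 libraries fell into 8 groups of 2. Summed over its listed sites, the coverage of a library lay between 39011213 and 107834007 reads, with a median coverage of 18 to 27 reads per site. Retained tiles had at least 30 reads per library at their common sites, and 333 of the 524 had at least 100 reads in each library. Reads per tile, here and below, are summed over sites, so a read that covers several sites is counted at each of them. The median tile level over all tiles was 65.6% at D0, 15.7% at D12 and 63.5% in iPSCs. At 15 CpGs of the mitochondrial genome, which is taken as nearly unmethylated, the level read 7.98% and 7.78% in the D12 libraries and 5.83% and 5.79% in the D0 libraries. Conversion at the tiles themselves was not tested. The labels do not state that the replicates came from separate cultures, so the spread behind the p-values is that between these libraries and may be technical.

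Most retained tiles were only moderately methylated at D12. The mean of the D12 libraries lay between 50% and 60% in 309 tiles, between 60% and 70% in 174, between 70% and 80% in 34 and at 80% or more in 7. The D12 libraries of a retained tile differed by a median of 5.14 points and at most by 35.3 points, and 23 tiles differed by more than 20 points. Just inside the limit lay chr3:53042001-53043000 (53.5% and 50.1% at D12), chr5:32623001-32624000 (50.1% and 51.9%) and chr12:7201001-7202000 (63.2% and 50.2%). Just outside, with exactly 50.0% in 1 library, lay chr1:75430001-75431000, chr1:101911001-101912000 and chr2:156650001-156651000, whose other library stood at 60.2%, 54.4% and 54.5%.

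A library that did not choose a tile shows how far the D12 level repeats. Of 1587 tiles over 50% in D12 replicate 1, 524 (33.0%) were over 50% in replicate 2, where their median was 43.7%, against 15.4% for all tiles. Of 1544 tiles over 50% in replicate 2, the same 524 (33.9%) passed in replicate 1, with a median of 44.4% against 15.5% for all tiles. Among tiles read 100 times or more per library the shares were 41.6% of 800 and 40.4% of 825 tiles. A tile that passed in 1 library was thus usually well above the background of all tiles in the other, but most often under 50%.

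CpG sites that the selection did not use gave a further reading. They lie in the same tiles and were read in the same D12 libraries. Reads of 150 bases can cover both used and unused sites, so the values are not wholly separate from the selection. In 305 retained tiles there were 3094 sites listed in both D12 libraries but not in all 16, and the median level over these tiles was 51.7%, against 24.0% over 43135 tiles of all kinds. Both libraries were over 50% at these sites in 117 retained tiles (38.4%), against 3.29% of all such tiles. Inside the retained tiles, 3992 of the 5467 common sites (73.0%) were over 50% at D12. Every site was over 50% in 91 tiles, and fewer sites were over 50% than under in 22. Of 163 tiles with at least 2 sites on each strand, 108 were over 50% on both strands, and the strands differed by a median of 8.43 points.

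Before D12 the retained tiles started high and fell late. Their median level was 91.8% at D0, against 65.6% for all tiles, and 461 of the 524 stood at 80% or more at D0. The level followed as 85.9% at D6, 76.9% at D8 and 72.5% at D10, while that of all tiles was 52.7% at D6, 35.5% at D8 and 24.2% at D10. The D12 median was 58.4%, against 15.7% for all tiles. The retained share was larger the higher the D0 level. Of the 3979 tiles at 90% or more at D0, 7.72% were retained. The share was 1.10% of 13971 tiles at 80% to 90%, 0.116% of 47244 at 50% to 80% and 0.0294% of 27189 under 50%. The limit of 50% itself shapes this order, since a tile under 50% at D0 had to gain methylation to pass it.

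**Figure D1:**
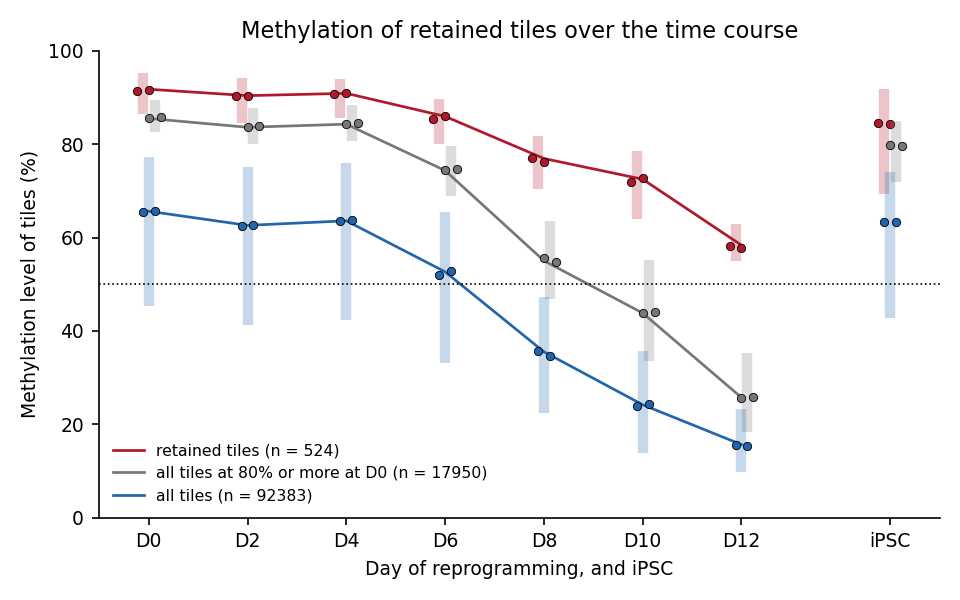
Methylation level (percent, vertical axis) of the 524 retained tiles, of the 17950 tiles at 80% or more at D0 and of all 92383 tiles, by day and in iPSCs. Points are the median tile level in each of 2 libraries, lines join the medians of the group means from D0 to D12, and bars span the quartiles; the median of retained tiles stood at 72.5% at D10, against 24.2% for all tiles.

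The mean over the retained tiles in each library gave the same course with little spread. D0 had a mean of 88.9% ± 0.098 (SD, n = 2 in each group), D2 of 87.5% ± 0.024 and D4 of 88.8% ± 0.14. The mean of D6 was 83.7% ± 0.059, that of D8 75.4% ± 0.83 and that of D10 69.9% ± 0.43, and iPSCs had 77.1% ± 0.11. The libraries of D6, D8, D10 and iPSC did not overlap those of D0. With 2 libraries against 2, the exact two-sided permutation p cannot go below 0.333, and it was 0.333 for these 4 comparisons and for D2, and 0.667 for D4.

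Tile by tile, the fall against D0 became detectable at D6 in few retained tiles and by D10 in most. Tiles were tested with edgeR's quasi-likelihood test over all 92383 tiles, and a call needed both a Benjamini-Hochberg adjusted p under 0.05 and a difference of 10 points or more between group means. At D6, 33 retained tiles (6.30%) were called lower, against 21.3% of all tiles tested, and 0 were called higher (0.107% of all). The D6 count was 18 without D6 replicate 1, 5 without D0 replicate 1 and 7 without D0 replicate 2, while the share of all tiles called was then 5.76%, 2.55% and 2.35%. At an unadjusted p under 0.05, 204 retained tiles were lower at D6 and 2 higher, counts for which no share over all tiles is given. The quasi-binomial model called 30 lower (5.73%, against 27.6% of all tiles) and 1 higher (129 of all 92383 tiles). At D8, 319 (60.9%) were called lower against a background of 72.2%. At D10, 427 (81.5%) were called lower against a background of 81.6%, so at this minimum difference the share was near that of tiles in general, and 0 were called higher (0.202% of all). With a minimum of 25 points, 21.9% of retained tiles were called lower at D10, against 69.8% of all tiles.

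The size of the fall differed more than the number of calls. The median difference from D0 was -4.97 points at D6, against -9.83 for all tiles. It was -13.2 against -24.7 points at D8, and -17.6 against -34.6 points at D10. These comparisons share the D0 libraries. Tiles that start near 0 cannot fall far, so retained tiles were also set beside all tiles that stood at 80% or more at D0. In this class 6.94% of 461 retained tiles were called lower at D6, against 36.8% of all 17950 tiles. The shares were 67.7% against 95.5% at D8 and 85.0% against 98.5% at D10. The D10 level was a median 80.6% of the D0 level in the retained tiles and 51.2% in all tiles of that class.

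At D2 and D4 no retained tile was called lower or higher in edgeR, where 0.0498% of all tiles were called lower at D2 and 0.0942% at D4, and 0.00433% higher at D4. At an unadjusted p under 0.05, 32 were lower and 5 higher at D2, and 20 were lower and 14 higher at D4. No share over all tiles is given for these unadjusted counts. Against D0, 471 retained tiles were called lower at D12 (background 82.5%) and 2 higher (0.664%), numbers that the selection on D12 shapes. The 2 higher were chr1:38169001-38170000 and chr8:19835001-19836000, described below. At D10, before the day used for selection, 445 retained tiles (84.9%) were already among the 5549 tiles (6.01% of all) over 50% in both D10 libraries, of which they made up 8.02%. Most tiles that were high at D10 were therefore not retained at D12.

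A few tiles kept nearly all of their methylation. The tile chr11:19970001-19971000, with 21 CpGs listed, read 98.6% and 96.8% in the D0 libraries, 93.7% and 93.5% at D10, 88.2% and 96.5% at D12, and in iPSCs 73.0% and 90%. Its next tile, chr11:19971001-19972000, read 95.6% and 95.8% at D0, 75.4% and 83.2% at D10, 77.0% and 77.3% at D12 and 73.9% and 85.9% in iPSCs. Against D0, chr11:19970001-19971000 stayed within 10 points at D10 (difference -4.10 points, adjusted p = 0.116), and its neighbour was called lower (-16.4 points, adjusted p = 0.00113). In iPSCs, both were called lower than D0, by -16.2 points (adjusted p = 0.0286) and -15.7 points (adjusted p = 0.0118), with iPSC replicate 1 the lower library each time. Both calls were lost without iPSC replicate 1, at -7.69 points (adjusted p = 0.286) and -9.75 points (adjusted p = 0.128). They were also lost without D0 replicate 1 (adjusted p = 0.209 and 0.0698) and without D0 replicate 2 (adjusted p = 0.0626 and 0.0670).

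The tile chr4:52821001-52822000 fell mainly after D10. It read 93.8% and 93.9% at D0, 89.2% and 86.6% at D8, 92.4% and 90.3% at D10, 76.0% and 78.4% at D12 and 92.7% and 93.9% in iPSCs. Against D0, the D10 difference was -2.52 points (adjusted p = 0.147), and the iPSC difference was -0.54 points (adjusted p = 0.888). This tile was also among those picked for a small fall to D10, so its D10 test is a description. Among the deeper tiles, chr9:26300001-26301000 was almost flat, with 85.8% and 87.4% at D0, 82.0% and 77.4% at D10, 77.4% and 77.6% at D12 and 82.0% and 82.7% in iPSCs. No library of this tile was under 77.4% at any day, and the D10 difference was -6.89 points (adjusted p = 0.0398), under the 10 points that a call needs.

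Among tiles with 100 reads or more in each library, the others with the highest D12 means were chr3:42780001-42781000 (73.6% and 84.0% at D12), chr12:88058001-88059000 (72.5% and 83.4%), chr5:120042001-120043000 (81.5% and 74.3%) and chr6:114539001-114540000 (76.1% and 77.9%). At D0 these 4 tiles lay between 80.5% and 100% in each library. In iPSCs chr6:114539001-114540000 read 79.2% and 81.4% and the other 3 lay between 94.2% and 98.2%, so all 4 were above their D12 level there. Of tiles at 80% or more at D0, those with the smallest fall to D10, or none, also included chr10:97164001-97165000 (97.1% and 100% at D10, 97.4% and 88.8% at D0), chr5:51164001-51165000 (96.7% and 93.6% at D10, 93.4% and 99% at D0) and chr9:33071001-33072000 (88.2% and 94.2% at D10, 95.5% and 92.4% at D0). These 3 were picked for a small change to D10, so their D10 tests are descriptions. None of them differed from D0 by more than its own libraries did (adjusted p = 0.559, 0.788 and 0.341).

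Only 8 of the 524 tiles were under 50% at D0, and they had no common course. The lowest, chr1:38169001-38170000, read 26.8% and 12.2% at D0, 56.2% and 42.2% at D4, 17.4% and 27.9% at D6, 52.4% and 58.0% at D12 and 43.4% and 19.6% in iPSCs. Its level moved up and down between days and its libraries often differed by over 10 points. Similar gaps between libraries were seen at chr9:108455001-108456000 (54.4% and 52.7% at D12, 38.3% and 2.99% at D0), at chr4:118303001-118304000 (57.4% and 56.0% at D12, 34.5% and 19.4% at D0) and at chr13:19132001-19133000 (62.5% and 22.4% in iPSCs, 61.0% and 59.8% at D12, 24.7% and 31.5% at D0). The libraries of a day lay closer at chr8:19835001-19836000, which read 38.7% and 38.2% at D0, 48.7% and 50.2% at D4, 37.3% and 37.5% at D6, 48.8% and 48.1% at D10, 56.1% and 58.5% at D12 and 37.9% and 46.6% in iPSCs. Its level thus also moved up and down, and at D12 it was 39.6% over its forward sites and 82.2% over its reverse sites. It had 97.3 reads per site. At D10 it stood 9.97 points above D0 (adjusted p = 0.0237), just under the 10 points of a call.

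Along the chromosomes the retained tiles were scattered, with a minority in small clusters. Joining tiles whose starts lay at most 10 kb apart gave 494 clusters, of which 24 held 2 tiles and 3 held 3, so 57 tiles (10.9%) had another retained tile within that distance. The median distance between neighbouring retained tiles was 3171000 bases. Each of the 19 chromosomes held some, with a share of its tiles between 0.213% (6 of 2815, chromosome 19) and 0.755% (45 of 5963, chromosome 1). Chromosome 4 had the most, with 47 of 6578 tiles (0.715%).

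Methylation at D12 was also higher in the close surroundings. Measured tiles directly next to a retained tile had a median D12 level of 42.1%, and 38 of these 199 (19.1%) were retained themselves. The median was 26.5% at 2 kb, 23.8% at 3 to 5 kb, 19.2% at 6 to 10 kb and 18.2% at 11 to 20 kb. Beyond that it neared the 15.7% of all tiles, with 16.3% at 51 to 100 kb. Reads of 150 bases can span the border between tiles, so the value at 1 kb is not wholly separate from the tile itself. The median D0 level also differed with distance, with 82.8% at 1 kb, 77.8% at 2 kb and 66.9% at 51 to 100 kb, and its part in the D12 pattern was not tested.

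**Figure D2:**
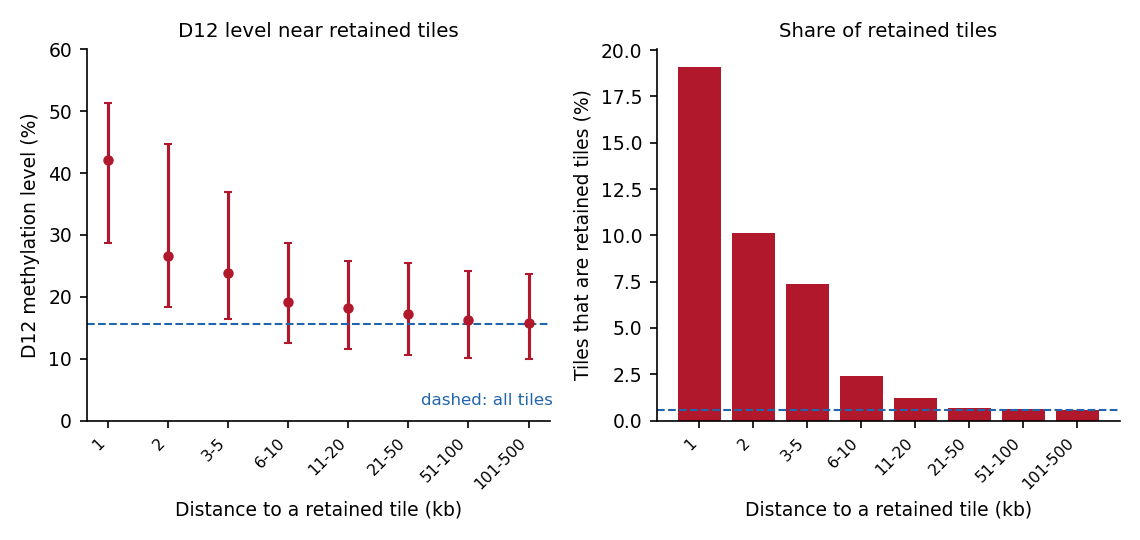
Left, D12 methylation level (percent) of measured tiles by distance to the nearest retained tile on either side (kb), as median with quartiles; right, the percent of those tiles that were retained. The dashed lines are all 92383 tiles. The medians include retained tiles and drop to 26.5% at 2 kb and 16.3% at 51 to 100 kb, against 15.7% for all tiles.

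The 3 clusters of 3 tiles differed in their course. On chromosome 17, the tiles at 35817001, 35820001 and 35825001 lay within chr17:35817001-35826000. The first read 60.7% and 58.4% in iPSCs, 69.6% and 64.2% at D12 and 88.1% and 86.1% at D0. The second read 33.4% and 31.7% in iPSCs, 65.4% and 59.4% at D12 and 65.5% and 67.1% at D0, so its D12 level was that of D0. The last read 46.7% and 50.6% in iPSCs, 55.8% and 54.0% at D12 and 75.2% and 72.6% at D0. At D10 the second read 49.3% and 51.6% and the last 50.8% and 48.5%, so in both the D12 libraries lay above the D10 libraries. These tiles were deep, with 59.0, 152 and 150 reads per site. All 3 were lower in iPSCs than at D0, by -27.6 points (adjusted p = 0.000416), -33.7 points (adjusted p = 0.00045) and -25.3 points (adjusted p = 0.000596).

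The cluster chr15:76059001-76064000 held the 2 retained tiles with the most CpGs. The tile at 76063001 had 56 CpGs listed and read 92.5% and 93.7% at D0, 81.0% and 79.2% at D10, 59.2% and 57.7% at D12 and 46.3% and 37.8% in iPSCs. At 76059001 (43 CpGs) the level was 77.3% and 75.7% in iPSCs and 60.5% and 61.0% at D12. The tile at 76061001 (38 CpGs) read 72.2% and 78.8% in iPSCs and 55.5% and 52.7% at D12. So in iPSCs the tile at 76063001 stood below its D12 level while the other 2 stood above theirs. Against D0 all 3 were called lower in iPSCs, by -51.1 points (adjusted p = 7.7e-06) at 76063001, -18.2 points (adjusted p = 3.23e-05) at 76059001 and -20.0 points (adjusted p = 0.00024) at 76061001.

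In the remaining large clusters the iPSC level lay between near the D0 level and 16.7 points below it. In chr3:6365001-6372000 the deep tile at 6365001 (154 reads per site) read 71.2% and 81.2% in iPSCs, 60.1% and 60.8% at D12 and 93.3% and 92.4% at D0, and was called lower in iPSCs (-16.7 points, adjusted p = 0.00102). Its neighbours at 6370001 and 6371001 did not pass the test in iPSCs (-11.6 points, adjusted p = 0.108, and -5.21 points, adjusted p = 0.665). Without iPSC replicate 1 the tile at 6370001 was called lower (-20.4 points, adjusted p = 0.00705). In chr8:73592001-73599000 the iPSC libraries lay between 78.6% and 83.9% and the D0 libraries between 80.5% and 82.6%. In chr3:67004001-67009000 the tile at 67008001 read 91.7% and 89.9% in iPSCs and 77.0% and 74.7% at D12, and the tile at 67004001 read 88.6% and 68.5% in iPSCs and 53.1% and 55.3% at D12. None of the 4 tiles of these clusters was called against D0 in iPSCs. The tile at 67004001 (-14.0 points, adjusted p = 0.0551) was close to a call, and it was called lower with the replicate number as a block (adjusted p = 0.0499) and without iPSC replicate 1 (-24.1 points, adjusted p = 0.00463), but not without iPSC replicate 2 (-3.92 points, adjusted p = 0.424).

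Retained tiles held more CpGs than tiles in general but were not read more deeply. CpG number is the count of distinct CpGs listed in any library, so it depends on how much of a tile the assay covered. Its median was 11 in retained tiles, against 6 in all tiles. The share of tiles retained was 0.177% of 31044 tiles with up to 4 CpGs and 0.466% of 33272 with 5 to 9. It was 1.23% of 18813 with 10 to 19 and 0.897% of 9254 with 20 or more. The class with the most CpGs thus had a smaller retained share than the class before it. These classes did not start alike. In the same order, the median D0 level of all their tiles was 63.4%, 71.6%, 67.9% and 9.73%. The part of the D0 level in the retained shares was not tested. Among tiles at 80% or more at D0, the median CpG number was 11 in retained tiles and 8 in all tiles.

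Depth was used as a sign of sequences that occur in several copies, since reads of collapsed copies pile up at 1 place. The median was 31.3 reads per site in retained tiles, against 37.4 in all tiles, and relative to the median tile of each library it was 0.831. Over 2 times the library median lay 34 retained tiles (6.49%), against 7.12% of all tiles. Over 3 times lay 22 (4.20%, against 2.56%), and over 5 times 11 (2.10%, against 0.845%). At the shallow end 33 (6.30%) lay under 0.5 times the median, against 2.08% of all tiles. So most retained tiles were of ordinary or low depth, with a small deep group. The sources used here do not say how reads that map to several places were treated.

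**Figure D3:**
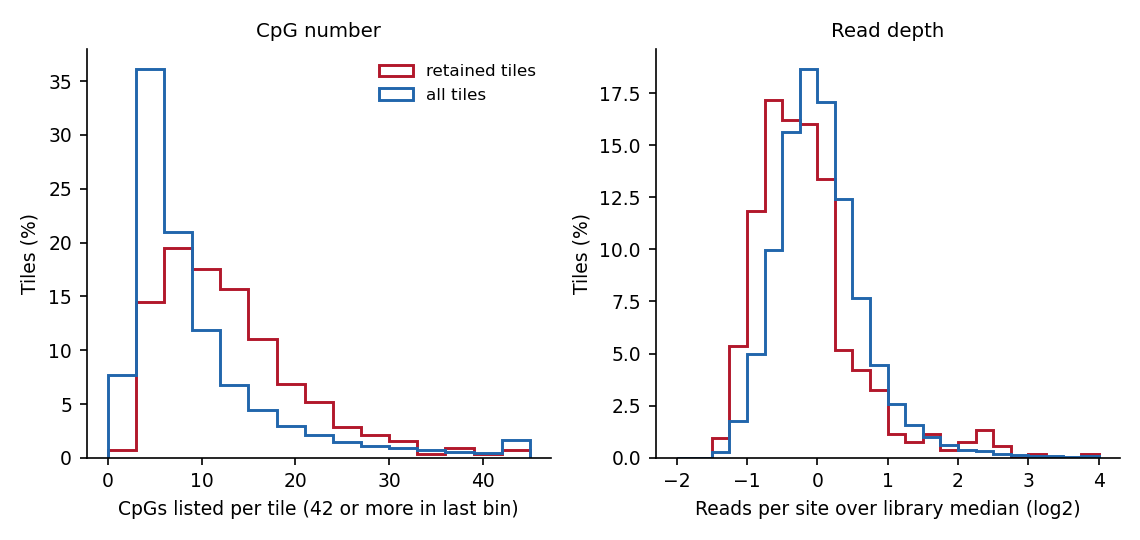
Left, CpGs listed per tile; right, reads per site divided by the library median (log2 axis), each as the percent of retained tiles and of all tiles in a bin. Retained tiles are shifted to more CpGs (median 11 against 6) and to slightly lower depth (median 31.3 against 37.4 reads per site), with a small peak between 2 and 2.5 on the log2 axis.

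The deepest retained tiles had nearly the same course. At 518 reads per site, chr12:39031001-39032000 read 85.8% and 85.4% at D0, 75.5% and 77.1% at D10, 55.8% and 53.3% at D12 and 83.7% and 84.7% in iPSCs. At 337 reads per site, chr6:81214001-81215000 read 86.2% and 85.7% at D0, 76.2% and 75.4% at D10, 55.4% and 56.6% at D12 and 84.4% and 84.0% in iPSCs. Tiles chr4:47100001-47101000 and chr1:158667001-158668000, at 246 and 243 reads per site, stayed within a few points of these at each of those days. With so many reads the libraries of a day differed by under 5 points, and the D10 fall was called in 3 of the 4: it was -10.1 points at chr6:81214001-81215000 (adjusted p = 0.000316), -11.9 at chr4:47100001-47101000 (adjusted p = 5.31e-05) and -11.4 at chr1:158667001-158668000 (adjusted p = 0.000112), against -9.33 at chr12:39031001-39032000 (adjusted p = 0.000362). The fifth, chr2:21305001-21306000, at 225 reads per site, differed in iPSCs, where it read 70.2% and 67.8%, against 90.7% and 89.7% at D0 (-21.2 points, adjusted p = 6.99e-05).

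The spacing between CpGs showed that many retained tiles resemble each other. A spacing run is taken here as 7 CpGs in a row with their 6 distances in bases, read in either direction, and a tile shares a run when another tile holds the same 6 distances. This measure was added after the data had been seen and is a description, not an alignment of sequences. Of 421 retained tiles with 7 or more CpGs, 242 (57.5%) shared a run with some other tile and 202 with another retained tile. Of all 44219 tiles with 7 or more CpGs, 11.9% shared a run. The contrast was present in each class of CpG number: 35.5% against 5.76% with 7 to 9 CpGs, 66.2% against 9.96% with 10 to 19, and 61.4% against 26.8% with 20 or more.

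Linking retained tiles that share a run gave families of 84, 64, 24 and 10 tiles and 2 of 3, while 336 retained tiles belonged to no family of 3 or more. The members of a family lay far apart. Family 1 lay on 18 chromosomes, family 2 on 19 and family 3 on 14. The run held by the most retained tiles had distances of 11, 7, 7, 9, 9 and 13 bases, was found in 71 tiles and belonged to family 2. Of these 71 tiles 47 (66.2%) were retained. Another run of family 2, 6 distances of 15 bases each, was found in 31 tiles, of which 24 (77.4%) were retained. In family 1, the run held by the most retained tiles had distances of 2, 18, 34, 12, 14 and 35 bases and was found in 284 tiles, of which 27 (9.51%) were retained. These runs were picked for the number of retained tiles that hold them, so the shares are descriptions. Over all runs held by at least 2 retained tiles of a family, 64 of 121 tiles (52.9%) were retained in family 2 and 84 of 898 (9.35%) in family 1.

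The families all fell up to D12 and lay apart in iPSCs. In family 1 the median level was 93.3% at D0, 86.5% at D6, 74.3% at D10, 57.7% at D12 and 55.9% in iPSCs. In family 2 it was 94.2% at D0, 89.8% at D6, 82.4% at D10, 61.7% at D12 and 93.6% in iPSCs. In family 3 it was 88.3% at D0, 84.6% at D6, 75.1% at D10, 56.8% at D12 and 86.3% in iPSCs. Families 2 and 3 thus stood in iPSCs close to where they stood at D0, and family 1 stood near its D12 level. Family 4 resembled family 3, with 89.9% in iPSCs.

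The test of iPSCs against D0, which uses no D12 library, followed this division. In family 1, 63 of 84 tiles (75%) were called lower in iPSCs and 30 were under 50% in both iPSC libraries. In families 2, 3 and 4, 0 of 64, 0 of 24 and 0 of 10 tiles were called lower, and 0 were under 50%. The background was 9.42% of all tiles tested, and 22.6% of all tiles at 80% or more at D0. Levels in iPSCs ranged from 12.3% to 98.1% within family 1, and from 86.2% to 100% within family 2. The median iPSC levels were 53.5% and 57.6% in the libraries of family 1, against 92.9% and 93.3% at D0. They were 93.7% and 93.5% in family 2, against 94.2% and 94.2% at D0. The difference between families was not itself tested.

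**Figure D4:**
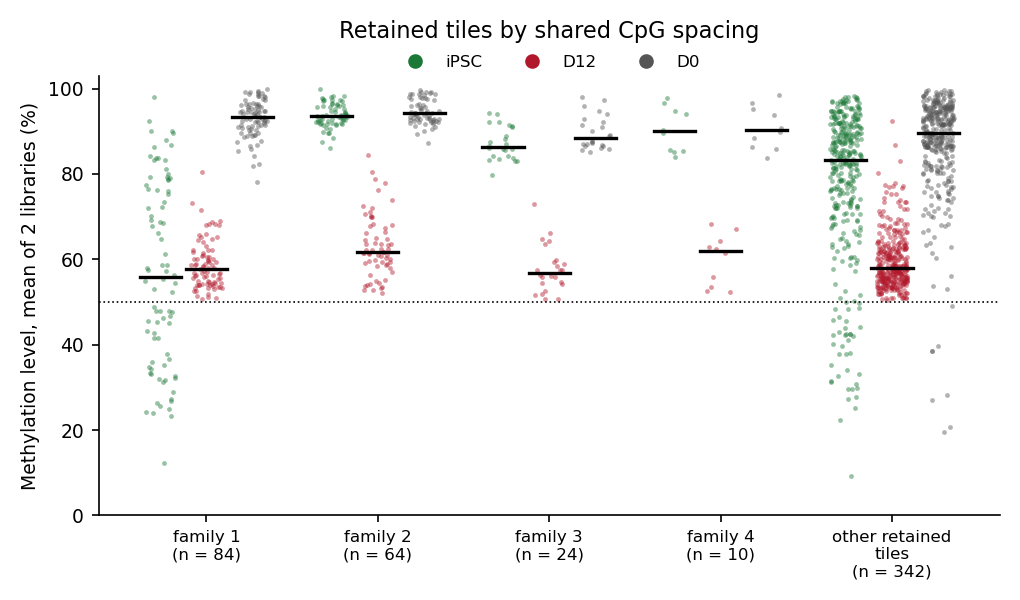
Methylation level (percent, mean of 2 libraries) in iPSCs, at D12 and at D0 for each retained tile, grouped by families of shared CpG spacing; each point is a tile and each bar a median. At D12 all groups lie over 50% by selection, and in iPSCs family 1 spreads from 12.3% to 98.1% while family 2 lies between 86.2% and 100%.

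Tiles with the same runs that were not retained gave the same picture for iPSCs against D0, and iPSC levels played no part in finding them. The runs held by at least 2 retained tiles of family 1 were found in 898 tiles on 19 chromosomes, of which 84 were retained. Of the other 814, 651 (80%) were called lower in iPSCs than at D0. The share was 9.42% of all tiles tested and 22.6% of all tiles at 80% or more at D0. Of all 898 none was called higher, against 4.10% of all tiles and 0.0669% of all tiles at 80% or more at D0. The count called lower over all 898 was 714 (79.5%). With each D0 or iPSC library left out in turn it was 605 to 638. The median level of these 898 tiles was 88.7% at D0, 79.2% at D6, 63.0% at D10, 41.4% at D12 and 53.4% in iPSCs. Their iPSC median thus lay above their D12 median, unlike in the 84 retained tiles. Library medians stood at 53.5% and 54.3% in iPSCs, against 88.8% and 88.4% at D0.

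The runs of the other families gave few calls, against 9.42% of all tiles called lower in iPSCs and 4.10% called higher. Among all tiles at 80% or more at D0, 22.6% were called lower and 0.0669% higher. Family 2 runs were found in 121 tiles, of which 3 (2.48%) were called lower in iPSCs, and the median was 92.7% in iPSCs, 56.4% at D12 and 93.1% at D0. Family 3 runs were found in 196 tiles, with 1 (0.510%) called lower, and a median of 85.7% in iPSCs, 41.9% at D12 and 87.1% at D0. Family 4 runs were found in 34 tiles, with 0 called lower or higher, and a median of 86.7% in iPSCs and 47.2% at D12. Over all carriers of their runs, families 1 and 3 thus had iPSC medians of 53.4% and 85.7%, and nearly the same D12 medians of 41.4% and 41.9%. Median depth was 39.4 reads per site for carriers of family 1, 37.3 for family 2 and 59.6 for family 3, and 4 of the 5 deepest retained tiles belonged to family 3. With runs of 5 or 8 distances instead of 6, 75.3% of 1144 and 85.2% of 481 carriers of the largest family were called lower in iPSCs, against 2.08% of 144 and 3.61% of 83 carriers of the next.

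In iPSCs most retained tiles were methylated, and a minority was not. Of the 524, 437 were over 50% in both iPSC libraries, 290 of them over 80%, 55 (10.5%) were under 50% in both, and 32 lay between. Of all tiles, 26620 (28.8%) were under 50% in both iPSC libraries. No share over all tiles is given for the 437 and the 290. Against D0, 133 (25.4%) were called lower, with a background of 9.42%, and 3 (0.573%) higher, with a background of 4.1%. The median difference was -2.61 points, against -1.76 for all tiles. Retained tiles start high, and among tiles at 80% or more at D0 the share called lower was 28.0% of the 461 retained tiles, against 22.6% of all 17950. The median difference in this class went the other way, with -3.00 points in retained tiles and -5.61 points in all tiles. In that class 49 retained tiles (10.6%) were under 50% in both iPSC libraries, against 1120 of all tiles (6.24%). In it 0 retained tiles were called higher than D0, against 0.0669% of all tiles. Of the 133 tiles called lower, 63 were of family 1. Of the 336 tiles in no family, 70 (20.8%) were called lower. The count of 133 was 106 to 117 with each D0 or iPSC library left out in turn, where 5.83% to 6.37% of all tiles were called lower.

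The 55 tiles lost in iPSCs had medians close to those of the others up to D12. Their median was 92.8% at D0, 74.4% at D10, 58.1% at D12 and 33.2% in iPSCs. For the 469 others it was 91.7% at D0, 72.0% at D10, 58.4% at D12 and 85.8% in iPSCs. Lost tiles had a median of 14 CpGs, against 11, and 34.0 reads per site, against 31.3. Of the 55, which low iPSC levels chose, 51 were called lower in iPSCs than at D0, a count that this choice shapes. The other 4, chr1:38169001, chr8:19835001, chr11:94967001 and chr12:72116001, had D0 levels of 68.2% or less in each library. Chromosomes 3 and 7 held none of the 55, and chromosome 2 held 7.

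Set against D12, which the selection fixed, 339 retained tiles were called higher in iPSCs (background 79.7%) and 40 lower (background 1.49%). The 8 named losses were picked for low iPSC levels and a large drop from D12. Their adjusted p-values for iPSCs against D0 are therefore descriptions. The largest drop was at chr8:58548001-58549000, which read 0% and 18.7% in iPSCs, 81.2% and 79.0% at D12 and 96.6% and 100% at D0. It rests on 3 common sites and as few as 30 reads in a library, and the difference from D0 was -88.9 points (adjusted p = 0.0015). A similar drop on 3 sites was seen at chr10:104590001-104591000, of family 1, with 17.1% and 7.5% in iPSCs, 61.3% and 81.8% at D12 and 98.1% and 100% at D0 (-86.8 points, adjusted p = 0.00213). Both tiles are thinly read, and their iPSC libraries lay well apart.

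The drop was also seen in deeper tiles. At chr2:63554001-63555000, with 11 sites and at least 308 reads in each library, the level was 35.7% and 32.4% in iPSCs, 68.7% and 72.4% at D12, 87.0% and 86.1% at D10 and 91.9% and 91.3% at D0. It differed from D0 by -57.5 points in iPSCs (adjusted p = 1.38e-05) and by -5.04 points at D10 (adjusted p = 0.0457). At chr6:84691001-84692000 the level was 28.6% and 16.1% in iPSCs, 53.5% and 67.2% at D12, 79.6% and 88.8% at D10 and 85.4% and 87.0% at D0, so this tile was among those with the smallest fall to D10 and also among those with the largest loss in iPSCs (-63.8 points, adjusted p = 0.0001). At chr10:46463001-46464000, of family 1, it was 18.9% and 29.1% in iPSCs, 62.2% and 58.8% at D12 and 97.8% and 92.2% at D0 (-71.0 points, adjusted p = 0.000532).

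The remaining named losses were chr5:93090001-93091000 (24.3% and 31.3% in iPSCs, 73.4% and 100% at D12), chr13:46729001-46730000 of family 1 (18.6% and 48.1% in iPSCs, 68.3% and 69.5% at D12) and chr18:47321001-47322000 of family 1 (37.8% and 16% in iPSCs, 52.0% and 72.2% at D12). All 3 were at 90% or more at D0 in each library and were called lower in iPSCs, with adjusted p = 0.018, 0.00176 and 0.000848. The call at chr5:93090001-93091000 (-65.2 points) was lost without any 1 of the D0 and iPSC libraries, with adjusted p between 0.0741 and 0.113 and differences between -68.7 and -61.6 points. The libraries of a group lay far apart at these tiles. Other tiles rich in CpGs kept intermediate levels, such as chr4:20295001-20296000 (42 CpGs, family 1), with 64.2% and 72.8% in iPSCs, against 98.4% and 100% at D0. At chr5:68378001-68379000 (39 CpGs, family 1) the level was 68.3% and 67.5% in iPSCs, against 90.8% and 89.7% at D0 (-22.4 points, adjusted p = 3.17e-05). With at least 20 reads per site, this difference was -9.08 points and no longer a call.

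The 3 retained tiles called higher in iPSCs than at D0, named after their values were seen, held other levels. At chr13:60615001-60616000, with 3 CpGs, the level was 79.6% and 79.3% in iPSCs, against 48.4% and 49.9% at D0 (30.4 points, adjusted p = 0.000948). It was also the only retained tile called higher at D8 (background 0.552%), at 71.3% and 69.8%, and it read 44.6% and 46.9% at D10. At chr9:97482001-97483000 the level was 95.2% and 95.5% in iPSCs, against 80.5% and 79.3% at D0 (15.4 points, adjusted p = 0.0089). At chr15:92665001-92666000 it was 82.8% and 84.1% in iPSCs, against 72.6% and 68.3% at D0 (12.9 points, adjusted p = 0.0168). Without iPSC replicate 1, and likewise without replicate 2, 1 retained tile was called higher.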

How the data were processed

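The authors deposited 1 CpG table per library. Per the file headers, coverage is a count of reads, and freqC and freqT are the percent of reads called C and T. No listed site had under 10 reads. The build was GRCm39, and Bismark 0.23.0, methylKit, Bowtie2 and fastp 0.20.1 were used, per the submitters' processing notes. Duplicate handling is not given in the sources at hand, libraries were amplified by 15 PCR cycles without molecular identifiers, and reads are not independent molecules.

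From these tables, methylated reads (coverage times percent) were summed over common sites per tile (Python, numpy 2.4.6, pandas 2.3.3). Methylated and unmethylated reads were tested with edgeR 4.0.16 in R 4.3.3, with all 16 libraries in 1 fit, an effect per library, a coefficient per group, a common dispersion and 8 residual degrees of freedom. The procedure was tested on simulated data. Spacing runs used all CpGs listed in any library. Named tiles were the 8 highest at D12 among those with 100 reads or more per library, the 5 largest clusters, the 8 largest losses from D12 to iPSC among lost tiles, the 5 deepest, the 5 with the most CpGs, the 5 lowest at D0, 3 on each side of the threshold and the 5 with the smallest fall to D10 among tiles at 80% or more at D0. The retained tiles and these rules were chosen with earlier results of these data known. Alternatives changed the coverage, sites per tile, threshold, strands, grid, averaging, depth, model, minimum difference and the libraries used.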

Additional observations from a re-analysis of the deposited data

How the results depend on the processing

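The number of retained tiles depended on the settings. At least 20 reads per site left 46577 tiles, of which 276 were retained. Of the 92383 tiles, 2244 were retained at a threshold of 40%, 100 at 60%, and 1544 to 1587 without a D12 replicate. Tiles lost in iPSCs then numbered 31, 277 and 11, and 70 to 223 without a D12 or iPSC replicate. Another retained tile lay within 10 kb of 16.3% of the retained tiles at the 40% threshold and of 16% at 60%. The next values are medians. Reads per site were 49.7 at 20 reads. The level was 94.8% (D0), 88.6% (D6), 79.8% (D8) and 76.6% (D10) at 20 reads. At the 40% threshold it was 87.6%, 80.4%, 69.3% and 63.4% on these days and 79.8% in iPSCs. At 60% it was 93.9%, 89.3%, 81.7%, 78.9% and 88.0% in iPSCs. With the level as a mean over sites it was 90.4%, 84.9%, 75.7%, 71.1% and 83.6%. With the grid shifted by 500 bases it was 85.2% at D6, 76.2% at D8 and 84.0% in iPSCs, and at D0 it was 91.5% with 5 sites per tile and 91.9% without the deepest tiles. Without a D12 replicate it was 87.48% to 87.55% at D0, 80.1% to 80.2% at D6, 68.8% to 69.5% at D8, 61.2% to 62.9% at D10 and 78.4% to 78.6% in iPSCs.

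At a minimum difference of 25 points, tiles called lower than D0 numbered 1 at D6 (0.191%, against 3.77% of all tiles), 44 at D8 (8.40%, against 48.7%), 115 at D10 (21.9%, against 69.8%) and 97 in iPSCs (18.5%, against 5.65%). With 20 reads per site, where fewer tiles are retained, 181 were called lower at D8 (65.6%, against 75.5%), 219 at D10 (79.3%, against 80.9%) and 95 in iPSCs (34.4%, against 11.6%). Tiles called higher were 0 at D8 under both settings and 1 and 0 in iPSCs. Of all tiles, 79 and 152 were called higher at D8 under these settings, and 2326 and 2403 in iPSCs. With 1 library left out, 5 to 22 were called lower at D6, 0 to 1 were called higher at D10, 1 to 2 at D8 and 1 to 2 in iPSCs. Fits with a library left out keep a single library in 1 group, and no share over all tiles is given here for their counts. With runs of 5, in tiles with 20 or more CpGs, the shares were 80.7% and 62.2%. The quasi-binomial model called 1 higher at D6. Of the 121 carriers of family 2 runs, 1 was called lower in iPSCs at 25 points, against 5.65% of all tiles. Shared spacing runs were held by 69.8% of retained tiles with runs of 5 distances, against 21.3% of all tiles, and 50.0% with runs of 8, against 5.53%, choices made after the data had been seen. With the replicate number as a block, 130 tiles were called lower in iPSCs (24.8%, against 9.13% of all tiles) and 32 at D6 (6.11%, against 19.6%). At D8 the block fit called 317 lower (60.5%, against 71.8%) and at D10 426 (81.3%, against 81.4%). The deviations of replicate 1 in the 28 pairs of groups had r between -0.0152 and 0.00752. No pairing by replicate number was thus seen, but a pairing weaker than the read noise of single tiles would also give a small r.

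Of 399 iPSC differences recomputed for 47 named tiles, 367 kept their direction and call, 18 lost the call, 3 gained it and 11 changed sign, none of which was called before or after. With a library left out, the differences ranged from -0.99 to 7.61 points at chr10:97164001, -5.71 to 34.4 at chr13:19132001, -1.04 to 0.016 at chr3:42780001, -1.11 to 0.033 at chr4:52821001, -1.76 to 3.89 at chr5:51164001, -0.61 to 8.12 at chr8:19835001, -0.20 to 1.97 at chr8:73598001 and -2.02 to 1.11 at chr9:33071001. At chr9:26300001 it was 0.83 with 20 reads per site. The cause was not tested. Depth limits the named tiles with 3 common sites and about 30 reads in a library, summed over those sites, where a single read moves the level by points.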

Other observations

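The sex chromosomes stand outside the comparison. By the same rule, 44 of 1830 tiles on chromosome X (2.40%) and 3 of 124 on chromosome Y (2.42%) were over 50% in both D12 libraries, against 0.567% of tiles on chromosomes 1 to 19.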
